A study of Oryza sativa with 12 samples.

Results

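The comparison described here is that of the roots of the rice hybrid Xieyou9308 at the heading stage, when panicles emerge, with its roots at the tillering stage, when side shoots form. It rests on 4 of the 12 root libraries of the study, 2 at heading and 2 at tillering, chosen by their labelled genotype and stage, and covers all 42081 annotated transcripts, which belong to 34791 loci. Xieyou9308 is the cross of the maternal line Xieqingzao B with the paternal restorer line R9308. The parental lines had 2 libraries at each stage as well, made from the same kind of material: plants were raised in the field, then moved as seedlings to floating boards in a pool of nutrient solution, with no treatment in any group. Each library was made from poly(A) RNA of root, and 2 roots were collected for each genotype and stage. The p-values given here thus rest on the spread between 2 roots of a group. In the main fit that spread is pooled over the groups of all 12 libraries, those of the parents included. The labels do not say whether the 2 roots of a group came from separate plants, and that spread may be technical in part. Stage cannot be told apart from anything else that differed between the sampling times, since all libraries of a stage come from that stage alone. Whether the library kit kept the strand is not given in the sources used here, so reads of overlapping and antisense genes cannot be told apart.

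A rice root takes up nitrate, ammonium, phosphate and silicic acid through transporters in its outer cell layers and endodermis, grows by division in the tip meristem and elongation behind it, and turns to fermentation where oxygen is short. During tillering new crown roots are still being formed, whereas at heading the shoot has turned to reproduction and the root system ages while it goes on supplying nutrients. Rice roots also make labdane-related diterpenoids, the momilactones and phytocassanes, which serve in defence and whose genes lie in clusters.

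The 4 hybrid libraries held 9310502 and 8953884 assigned counts at heading, against 8209696 and 12567672 at tillering. Of 34 transcripts counted in R9308 alone and 41 counted in Xieqingzao B alone among the parental libraries, between 85.3% and 97.6% had more than 3 counts in each hybrid library, so all 4 held transcripts of both parental kinds. The heading libraries lay close together, with 8.38% of 29560 tested transcripts at least 2-fold apart and an SD of 0.72 for the log2 ratio of the 2 libraries. The tillering libraries lay far apart, with 36.8% at least 2-fold apart and an SD of 1.37, the widest of the 6 groups. Tillering replicate 2 was the outlying one: by 1 minus the correlation of log2(RPKM + 1), its nearest library was at a distance of 0.0931, the largest such value among the 12 libraries. RPKM, the deposited unit for levels, is the count of a transcript scaled to its length and to the assigned counts of the library. Values are therefore given for each library below, and groups of genes on which the tillering libraries disagreed are described apart.

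Markers of other tissue were measured too. Transcripts of 9 leaf genes, among them those for the small subunit of Rubisco, chlorophyll a/b-binding proteins and the oxygen-evolving complex, summed to 264 and 155 RPKM at heading, against 4.98 and 19.9 RPKM at tillering. Of their 21 transcripts 5 were at 0 in all 4 libraries, and none of the 16 tested was called, although 11 were above both tillering libraries in both heading libraries, as were 29.2% of all tested transcripts. The test, described below, takes its spread from the parental libraries too. Among these, R9308 tillering replicate 1 held the leaf transcripts at 5054 RPKM, beside 16.6 RPKM in R9308 tillering replicate 2. The effect of this on the lack of calls was not tested. Root genes were present in all 4 libraries: 10 loci summed to 928 and 776 RPKM at heading, against 677 and 1207 RPKM at tillering, and none was at 0 throughout. The list holds the risers Lsi1 and Lsi2, described below, and the other 8 root genes summed to 194 and 106 RPKM at heading, against 544 and 1122 RPKM at tillering. The part of leaf RNA, or of a different make-up of the root, in the results below was not tested.

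By edgeR's quasi-likelihood test on counts of all 12 libraries, 496 of 29560 tested transcripts (1.68%) were called at an adjusted p of 0.05 or less and at least a 2-fold change: 320 rose at heading (1.08%) and 176 fell (0.595%). Among them, 316 risers (1.07%) and 168 fallers (0.568%) differed at least 2-fold in all 4 pairs of a heading with a tillering library. In 198 of these 484 every pair differed at least 4-fold. All 496 calls differed the same way in every pair, but the pairs hold the values that made the calls. They are thus no independent support from either tillering library. Of single transcripts only these 484 are named as changed below. The smallest adjusted p was 0.0318, so the calls lie near the threshold. The test called none when fitted to the 4 hybrid libraries alone, none without heading replicate 1 and none without heading replicate 2, with 4743, 4591 and 4057 transcripts at an unadjusted p under 0.05. It called 7 without tillering replicate 2 and 5998 without tillering replicate 1. When library totals alone set the scale, 329 rose and 325 fell, since that scale moved the median log2 fold change of all transcripts to -0.13, against -0.01 with TMM. Counts summed over each locus gave 833 of 24126 loci that rose (3.45%) and 779 that fell (3.23%), together 6.68%.

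**Figure D1:**
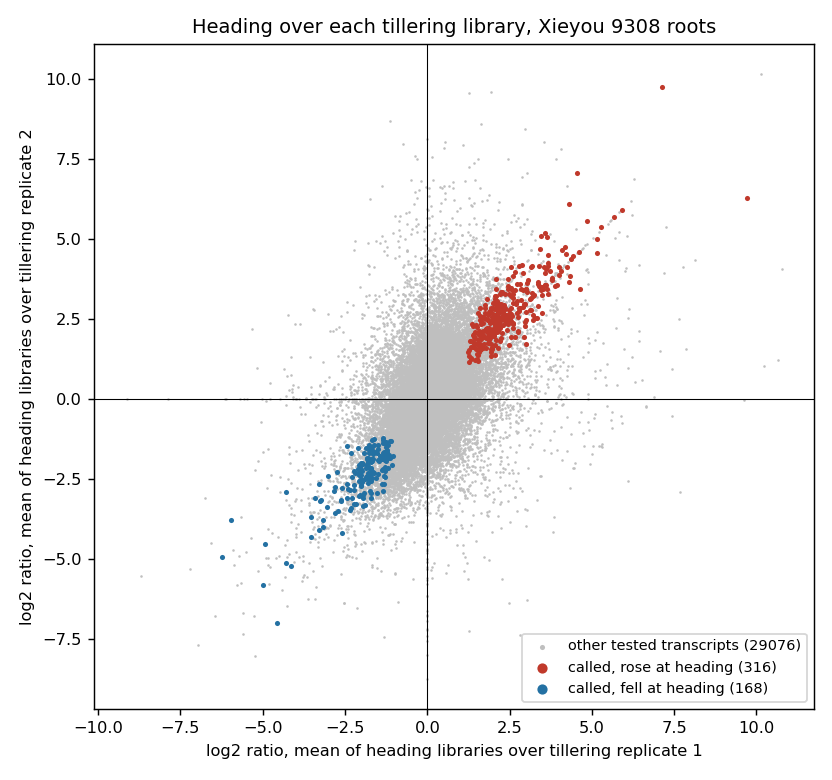
Log2 ratio of the mean of the heading libraries over tillering replicate 1 (horizontal axis) and over tillering replicate 2 (vertical axis), from TMM-scaled CPM with 0.5 added, for 29560 tested transcripts (grey). The 316 called transcripts that rose (red) lie in the upper right and the 168 that fell (blue) in the lower left, while many grey points lie off the diagonal.

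Genes of silicon uptake stood among the risers. In whole roots, as here, fewer cells of a type and less RNA per cell cannot be told apart. Lsi2 (Os03t0107300-01), which exports silicic acid from root cells towards the stele, had 270 and 248 RPKM at heading, against 24.9 and 25.7 RPKM at tillering. The tillering values lay close together and far below both heading values, with a log2 fold change of 3.48 ± 0.54 (SE, edgeR adjusted p = 0.0337). Lsi1 (Os02t0745100-01), the aquaporin-like channel through which silicic acid enters the root, had 465 and 422 RPKM at heading, against 108 and 59.6 RPKM at tillering, which gave a log2 fold change of 2.51 ± 0.46 (SE, edgeR adjusted p = 0.0448). Lsi3 (Os10t0547500-01) had 24.4 and 23.8 RPKM at heading, against 3.79 and 11.8 RPKM at tillering, and was not called. Of the 6 tested transcripts of the silicon list 2 rose and none fell, beside 1.08% of all tested transcripts that rose, and the median log2 fold change was 2.14 beside -0.01 for all transcripts.

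Several genes of nitrogen uptake and assimilation were higher at heading, and part of them passed the test. NADH-GOGAT2 (Os05t0555600-01), a glutamate synthase that takes part in nitrogen assimilation, had 22.3 and 14.6 RPKM at heading, against 1.29 and 0.670 RPKM at tillering, a change of 4.35 ± 0.46 on the log2 scale (SE, edgeR adjusted p = 0.0318). Its second transcript (Os05t0555600-02) stood at 7.73 and 8.66 RPKM at heading, against 7.68 and 3.42 RPKM at tillering, and the locus sum rose by 2.31 on the log2 scale (edgeR adjusted p = 0.0323). For the nitrate reductase NIA1 (Os08t0468100-01), which reduces nitrate to nitrite, the values were 22.6 and 13.1 RPKM at heading, against 1.16 and 1.31 RPKM at tillering, giving a log2 fold change of 3.97 ± 0.79 (SE, edgeR adjusted p = 0.0489), although the locus sum missed the threshold, at 2.65 on the log2 scale (edgeR adjusted p = 0.0567). An ammonium transporter (Os05t0468700-01), named after its values were seen, had 31.2 and 40.6 RPKM at heading, against 6.54 and 6.18 RPKM at tillering and also rose (2.62 ± 0.33 on the log2 scale (SE, edgeR adjusted p = 0.0318)).

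The high-affinity nitrate transporters showed larger ratios with wider spread. NRT2.2 (Os02t0112600-01) had 128 and 115 RPKM at heading, against 7.42 and 0.311 RPKM at tillering, with a log2 fold change of 5.08 ± 1.14 (SE, edgeR adjusted p = 0.0585). NRT2.3 (Os01t0704100-02) had 168 and 114 RPKM at heading, against 9.33 and 0.589 RPKM at tillering, and NAR2.1 (Os02t0595900-00), the partner protein these carriers need, had 229 and 188 RPKM at heading, against 39.4 and 0.936 RPKM at tillering. In each case both heading libraries lay above both tillering libraries, but tillering replicate 2 was far below tillering replicate 1, and none of these transcripts was called. In the locus sums, where fewer features were tested, NRT2.2 rose by 5.08 on the log2 scale (edgeR adjusted p = 0.0333) and NRT2.3 by 4.76 on the log2 scale (edgeR adjusted p = 0.0402), while NAR2.1 was not called (edgeR adjusted p = 0.0983). NRT2.2 and NRT2.1 share much sequence, so their reads may be split between them. Over the nitrogen list 2 of 22 tested transcripts rose and none fell, beside 1.08% of all transcripts that rose, and in locus sums 4 of 14 rose and none fell, beside 3.45% of all loci that rose. In this list 16 transcripts had both heading libraries above both tillering libraries (29.2% of all tested transcripts did), and the median log2 fold change was 1.71. The summed level of its 23 transcripts was 1577 and 1366 RPKM at heading, against 878 and 717 RPKM at tillering.

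Among single transcripts of the phosphate list only PT8 (Os10t0444700-01), a phosphate transporter of the root, passed, with 288 and 327 RPKM at heading, against 97.0 and 60.2 RPKM at tillering and a log2 fold change of 2.08 ± 0.40 (SE, edgeR adjusted p = 0.0462). In locus sums 2 of 12 rose, PT8 and the phosphate transporter PT1, by 1.81 on the log2 scale (edgeR adjusted p = 0.0493) for PT1 (Os03t0150600-01). The 19 tested transcripts of that list had a median log2 fold change of 0.68, and against the tillering libraries singly the medians were 0.02 for replicate 1 and 1.57 for replicate 2. Other carriers that rose were a cation/proton exchanger (Os12t0616500-00), at 380 and 360 RPKM at heading, against 32.2 and 11.2 RPKM at tillering, and a copper transporter (Os01t0770700-00), at 38.2 and 25.5 RPKM at heading, against 2.26 and 1.801 RPKM at tillering. Both were named after their values were seen, and they rose by 4.19 ± 0.68 on the log2 scale (SE, edgeR adjusted p = 0.0383) and by 4.09 ± 0.72 on the log2 scale (SE, edgeR adjusted p = 0.0417). Of 64 tested transcripts of nitrate and peptide transporters 1 rose, beside 1.08% of all transcripts. In locus sums 8 of 57 rose and none fell, beside 3.45% of all loci that rose. The transcript was Os04t0691400-00, at 13.1 and 10.9 RPKM at heading, against 1.90 and 1.86 RPKM at tillering.

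**Figure D2:**
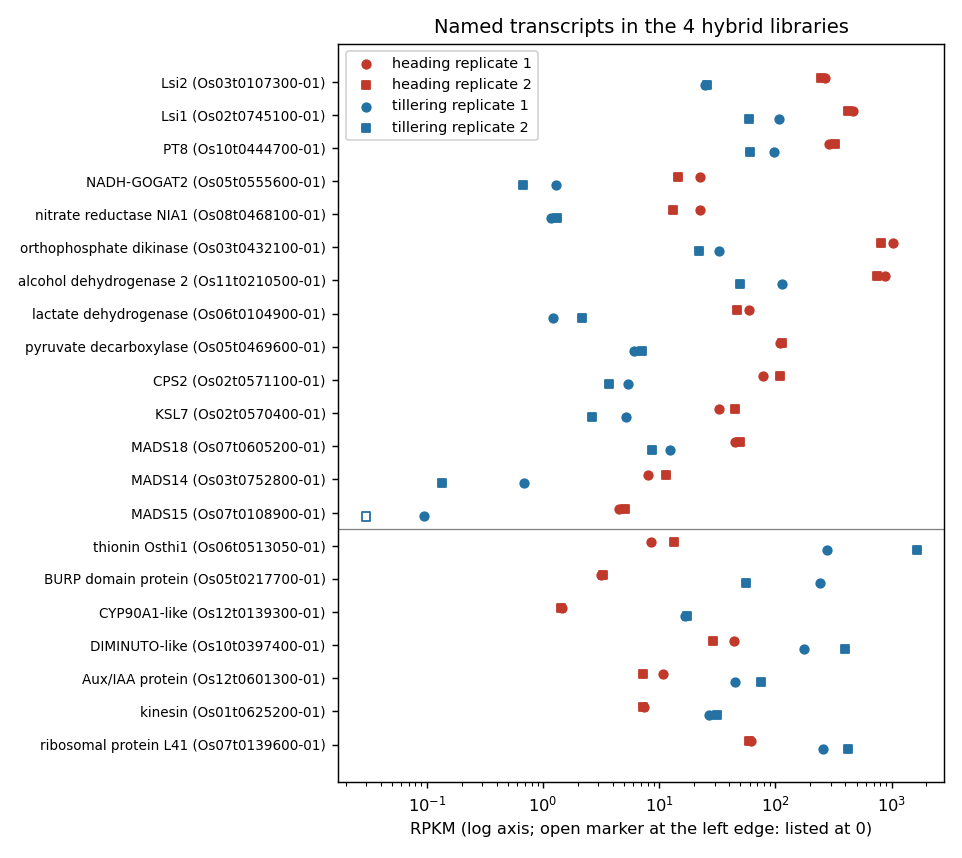
RPKM on a log axis of 14 transcripts that rose (above the line) and 7 that fell (below it) in heading replicates 1 and 2 (red) and tillering replicates 1 and 2 (blue). The red and blue markers do not overlap for any of them, and the open marker stands for MADS15, listed at 0 in tillering replicate 2.

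Fermentation and the pyruvate branch point were a further group in which single members rose strongly. Orthophosphate dikinase (Os03t0432100-01), which interconverts pyruvate and phosphoenolpyruvate, was among the most abundant risers, with 1021 and 816 RPKM at heading, against 32.8 and 21.8 RPKM at tillering and a log2 fold change of 5.18 ± 0.83 (SE, edgeR adjusted p = 0.0362). Alcohol dehydrogenase 2 (Os11t0210500-01), which makes ethanol from acetaldehyde, had 872 and 743 RPKM at heading, against 114 and 49.3 RPKM at tillering, a change of 3.41 ± 0.51 on the log2 scale (SE, edgeR adjusted p = 0.0334). Lactate dehydrogenase (Os06t0104900-01) had 58.8 and 46.8 RPKM at heading, against 1.21 and 2.16 RPKM at tillering. Its rise amounted to 5.08 ± 0.80 on the log2 scale (SE, edgeR adjusted p = 0.0355). Pyruvate decarboxylase, which commits pyruvate to ethanol, rose at a pair of neighbouring loci: Os05t0469600-01 had 110 and 114 RPKM at heading, against 6.02 and 7.11 RPKM at tillering, and Os05t0469800-00 had 67.8 and 95.2 RPKM at heading, against 3.15 and 8.07 RPKM at tillering. These similar copies may share reads, and they rose by 4.22 ± 0.74 on the log2 scale (SE, edgeR adjusted p = 0.0410) and by 3.99 ± 0.64 on the log2 scale (SE, edgeR adjusted p = 0.0361).

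Not all of the fermentation list moved this way. Of its 21 tested transcripts 4 rose and none fell, beside 1.08% of all transcripts that rose, with a median log2 fold change of 0.52. The most abundant pyruvate decarboxylase, Os03t0293500-02, had 136 and 125 RPKM at heading, against 108 and 104 RPKM at tillering. Sucrose synthase SUS1 (Os03t0401300-01) had 357 and 236 RPKM at heading, against 1101 and 800 RPKM at tillering, and its locus sum fell by 2.01 on the log2 scale (edgeR adjusted p = 0.0460), while none of its single transcripts was called. Phosphoenolpyruvate carboxylase, which feeds the citric acid cycle with oxaloacetate, was split between transcripts of different loci. One annotated as similar to it (Os01t0208700-01) rose, with 66.2 and 59.2 RPKM at heading, against 11.8 and 10.3 RPKM at tillering, and another (Os02t0244700-04) fell, with 25.8 and 26.6 RPKM at heading, against 100 and 134 RPKM at tillering. In the wider glycolysis list 6 of 166 tested transcripts rose and 4 fell, beside 1.08% and 0.595% of all transcripts, with a median of 0.01.

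Diterpenoid phytoalexin genes were higher at heading as a group. CPS2 (Os02t0571100-01), the ent-copalyl diphosphate synthase of phytocassane synthesis, had 79.0 and 111 RPKM at heading, against 5.40 and 3.73 RPKM at tillering and rose by 4.49 ± 0.88 on the log2 scale (SE, edgeR adjusted p = 0.0479). KSL7 (Os02t0570400-01), which acts next in that pathway, had 32.6 and 45.1 RPKM at heading, against 5.17 and 2.65 RPKM at tillering, with a log2 fold change of 3.42 ± 0.67 (SE, edgeR adjusted p = 0.0483). All 11 tested transcripts of the list had both heading libraries above both tillering libraries, beside 29.2% of all transcripts, and their median log2 fold change was 2.92. As single transcripts only CPS2 and KSL7 were called, and in locus sums 6 of 10 rose, beside 3.45% of all loci. KSL4 (Os04t0179700-01), of the momilactone pathway, had 9.52 and 22.4 RPKM at heading, against 3.14 and 3.06 RPKM at tillering. Summed over the list, levels were 331 and 457 RPKM at heading, against 63.3 and 39.0 RPKM at tillering.

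WRKY transcription factors, many of which act in defence and stress responses, also leaned upwards. Of 87 tested transcripts 9 rose and 1 fell, beside 1.08% and 0.595% of all transcripts, with a median of 0.92. In locus sums 19 of 78 rose and none fell, beside 3.45% and 3.23% of all loci. Os05t0137500-00, similar to WRKY transcription factor 5, had 6.58 and 7.16 RPKM at heading, against 0.226 and 0.369 RPKM at tillering, a rise of 4.57 ± 0.46 on the log2 scale (SE, edgeR adjusted p = 0.0318). Os01t0289600-00 had 9.45 and 10.5 RPKM at heading, against 0.496 and 0.259 RPKM at tillering. Os05t0584000-00 had 21.6 and 27.02 RPKM at heading, against 1.83 and 2.05 RPKM at tillering. The single transcript that fell was Os05t0322900-02, similar to WRKY transcription factor 45, with 4.06 and 3.52 RPKM at heading, against 11.8 and 17.2 RPKM at tillering, and its locus sum was not called (edgeR adjusted p = 0.111). Of 111 tested transcripts of chitinases and other pathogenesis-related proteins none was called by edgeR, and the median was 0.58. In locus sums 3 of 92 rose and 1 fell. A transcript annotated as a disease resistance protein (Os05t0104200-00) rose, with 52.6 and 84.5 RPKM at heading, against 3.96 and 4.71 RPKM at tillering.

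Some of the largest rises were in genes annotated as stress-linked or as carriers. A DREB-like factor (Os02t0677300-01), of a family that acts in cold and drought responses, had 22.8 and 18.4 RPKM at heading, against 0 and 0 RPKM at tillering, which is at least 85.4-fold higher at heading when a floor of 3 counts per library is set for tillering. A second transcript of this locus was present at tillering, and the locus sum was not called (edgeR adjusted p = 0.283). A salt stress-induced protein (Os01t0355250-00) had 60.2 and 43.1 RPKM at heading, against 0.280 and 0.183 RPKM at tillering, that is 1 count in each tillering library and a ratio of 257 with an exact counting interval of 70.7 to 2130. Abscisic stress ripening protein 1 (Os01t0959200-01) had 28.4 and 32.5 RPKM at heading, against 1.30 and 1.21 RPKM at tillering, and its neighbour Os01t0959100-01 had 38.3 and 46.7 RPKM at heading, against 2.57 and 2.098 RPKM at tillering. A metallophosphoesterase (Os12t0637200-01) had 153 and 198 RPKM at heading, against 4.78 and 5.75 RPKM at tillering, or 5.18 ± 0.85 on the log2 scale (SE, edgeR adjusted p = 0.0391). A hexose transporter transcript (Os07t0106200-01) had 188 and 244 RPKM at heading, against 0 and 2.86 RPKM at tillering, and its locus sum rose by 2.53 on the log2 scale (edgeR adjusted p = 0.0333), less than the single transcript, at 7.33 ± 1.38 on the log2 scale (SE, edgeR adjusted p = 0.0450).

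MADS-box genes of the APETALA1/FRUITFULL group, known for setting meristem fate at flowering, rose in these roots. MADS18 (Os07t0605200-01) had 45.2 and 49.4 RPKM at heading, against 12.4 and 8.63 RPKM at tillering, a rise of 2.28 ± 0.29 on the log2 scale (SE, edgeR adjusted p = 0.0318). MADS14 (Os03t0752800-01) had 8.02 and 11.5 RPKM at heading, against 0.684 and 0.134 RPKM at tillering, with a log2 fold change of 4.73 ± 0.70 (SE, edgeR adjusted p = 0.0332). MADS15 (Os07t0108900-01) had 4.53 and 5.06 RPKM at heading, against 0.0951 and 0 RPKM at tillering, that is 108 and 116 counts at heading, against 2 and 0 counts at tillering, and a ratio of 140 with an exact counting interval of 38.2 to 1160. An FT-like transcript annotated as SP3D (Os01t0218500-02), named after its values were seen, had 9.64 and 13.1 RPKM at heading, against 1.28 and 0.772 RPKM at tillering. Of the 8 tested transcripts of the flowering list 3 rose and none fell, beside 1.08% of all transcripts that rose.

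Photosynthesis transcripts as a list had a median log2 fold change of 2.86, with 62 of 105 tested above both tillering libraries in both heading libraries, beside 29.2% of all transcripts. Only 1 was called, a share near the 1.08% of all transcripts that rose. It was Os01t0860601-01, a root ferredoxin that carries electrons in non-green tissue, with 62.5 and 56.7 RPKM at heading, against 14.6 and 7.78 RPKM at tillering. The summed level of the list was 1488 and 1035 RPKM at heading, against 710 and 627 RPKM at tillering, and it moved together with the leaf markers, at 264 and 155 RPKM at heading, against 4.98 and 19.9 RPKM at tillering. Their part in this result was not tested. R9308 tillering replicate 1, whose values enter the spread used by the test, held the list at 14060 RPKM, beside 552 RPKM in R9308 tillering replicate 2. The effect of this on the number of calls was not tested either.

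**Figure D3:**
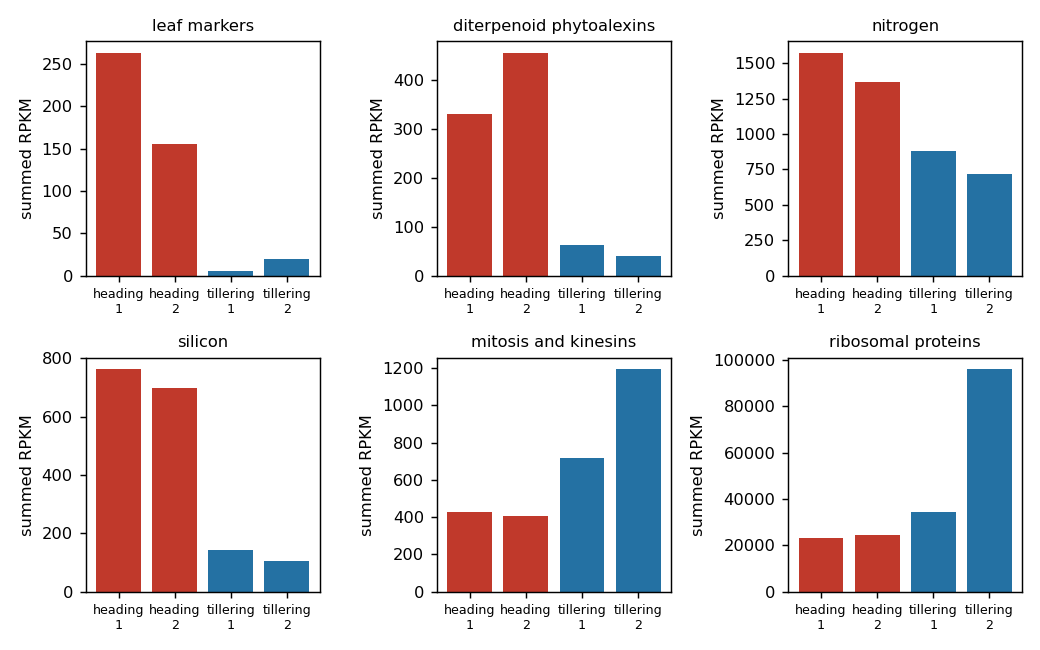
Summed RPKM (vertical axes, from 0) of 6 gene lists in heading replicates 1 and 2 (red) and tillering replicates 1 and 2 (blue). Leaf markers, diterpenoid, nitrogen and silicon genes had both heading bars above both tillering bars, mitosis and ribosomal protein genes the reverse, and ribosomal protein transcripts reached 96260 RPKM in tillering replicate 2.

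Ribosomal proteins, the protein part of the ribosome, had 12 of 400 tested transcripts that fell and none that rose, beside 0.595% of all transcripts that fell, with a median log2 fold change of -1.28. In locus sums 65 of 334 fell, beside 3.23% of all loci, and 2 rose. Ribosomal protein L41 (Os07t0139600-01) had 61.3 and 59.8 RPKM at heading, against 255 and 421 RPKM at tillering, with a log2 fold change of -2.35 ± 0.29 (SE, edgeR adjusted p = 0.0318). Ribosomal protein L1 (Os01t0860300-01) had 33.5 and 33.6 RPKM at heading, against 91.7 and 243 RPKM at tillering. Summed levels were 23230 and 24330 RPKM at heading, against 34500 and 96260 RPKM at tillering. The size of the difference thus depended on the tillering library: the median log2 ratio was -0.35 over replicate 1 and -1.74 over replicate 2.

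Genes of the cell cycle were lower at heading against either tillering library. Of 64 tested transcripts of mitosis and kinesins 46 had both heading libraries below both tillering libraries (26.8% of all tested transcripts did). The median was -1.40, and 1 fell, beside 0.595% of all tested transcripts. This was a kinesin (Os01t0625200-01), a microtubule motor, with 7.45 and 7.21 RPKM at heading, against 26.9 and 31.5 RPKM at tillering and a log2 fold change of -1.87 ± 0.32 (SE, edgeR adjusted p = 0.0410). In locus sums 11 of 59 fell, beside 3.23% of all loci, and 1 rose. For DNA replication 42 of 62 tested transcripts lay below both tillering libraries, with a median of -1.07. The only call there, Os05t0111000-01, is annotated as similar to a Gag polyprotein, a retroelement product and not a replication protein, and in locus sums 6 of 52 fell. The MAP65 proteins, which bundle microtubules, were named after their values were seen: Os06t0308300-01 had 15.6 and 11.9 RPKM at heading, against 58.9 and 80.1 RPKM at tillering, and Os02t0720200-01 had 2.52 and 2.14 RPKM at heading, against 8.96 and 17.4 RPKM at tillering. Both fell, by 2.21 ± 0.31 on the log2 scale (SE, edgeR adjusted p = 0.0318) and by 2.36 ± 0.43 on the log2 scale (SE, edgeR adjusted p = 0.0438).

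Single enzymes of the route from acetyl-CoA to sterols and brassinosteroids, the plant steroid hormones of cell elongation, were among the transcripts that fell. No list of that route was tested, and its members that did not change were not counted. Of those given here the acetyl-CoA acetyltransferase and the CYP90A1-like enzyme were named by rule and the others after their values were seen. The CYP90A1-like P450 (Os12t0139300-01), whose Arabidopsis relative acts in brassinosteroid synthesis, had 1.45 and 1.44 RPKM at heading, against 16.9 and 17.3 RPKM at tillering and a log2 fold change of -3.44 ± 0.41 (SE, edgeR adjusted p = 0.0318). The transcript similar to DIMINUTO/Dwarf1 (Os10t0397400-01), a sterol reductase, had 44.1 and 29.1 RPKM at heading, against 177 and 400 RPKM at tillering. Cycloartenol-C-24-methyltransferase 1 (Os07t0206700-01), at an early branch of sterol synthesis, had 37.9 and 36.1 RPKM at heading, against 115 and 232 RPKM at tillering.

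Further up the pathway, HMG-CoA synthase (Os03t0118800-01) had 1.12 and 0.712 RPKM at heading, against 7.34 and 11.7 RPKM at tillering, and acetyl-CoA acetyltransferase (Os09t0252100-02) had 1.40 and 2.92 RPKM at heading, against 28.2 and 52.1 RPKM at tillering. Farnesyl diphosphate synthase (Os05t0543400-02), which makes the precursor of squalene, had 22.7 and 16.5 RPKM at heading, against 77.5 and 170 RPKM at tillering. A delta-7-sterol-C5 desaturase (Os01t0134500-01) had 15.9 and 11.5 RPKM at heading, against 51.9 and 86.0 RPKM at tillering, and a sterol 4-alpha-methyl oxidase (Os11t0707600-02) had 9.40 and 10.3 RPKM at heading, against 26.6 and 72.5 RPKM at tillering. Among the enzymes from HMG-CoA synthase to the CYP90A1-like one, log2 fold changes ran from -3.44 for Os12t0139300-01 to -2.09 for Os07t0206700-01. A P450 similar to CYP734A7 (Os07t0647200-00), of a family that inactivates brassinosteroids, rose instead, with 10.1 and 7.21 RPKM at heading, against 0.802 and 0.629 RPKM at tillering.

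Among the transcripts with the largest falls were thionins, BURP domain proteins and a conserved hypothetical protein. Thionin Osthi1 (Os06t0513050-01), a member of a family of cysteine-rich antimicrobial peptides, had 8.59 and 13.3 RPKM at heading, against 280 and 1654 RPKM at tillering, with a log2 fold change of -6.31 ± 1.07 (SE, edgeR adjusted p = 0.0410). A Ligatoxin B-like thionin (Os06t0513943-01) had 29.4 and 28.6 RPKM at heading, against 986 and 1885 RPKM at tillering. Thionins are a family of near-identical copies, so the values of single loci are uncertain. A BURP domain protein (Os05t0217700-01) had 3.16 and 3.29 RPKM at heading, against 241 and 56.5 RPKM at tillering, and its neighbour Os05t0217800-01 had 0 and 0 RPKM at heading, against 8.20 and 3.03 RPKM at tillering. A conserved hypothetical protein (Os10t0455300-00) had 1.30 and 1.75 RPKM at heading, against 184 and 80.1 RPKM at tillering. Phosphoethanolamine methyltransferase (Os05t0548900-01), which makes the head group of phosphatidylcholine, had 4.26 and 3.01 RPKM at heading, against 32.8 and 44.9 RPKM at tillering and fell by 3.29 ± 0.43 on the log2 scale (SE, edgeR adjusted p = 0.0318). An Aux/IAA protein (Os12t0601300-01), a repressor of auxin responses, had 10.8 and 7.31 RPKM at heading, against 44.6 and 74.6 RPKM at tillering, while auxin response factor 10 (Os04t0519700-01) rose, with 25.4 and 26.0 RPKM at heading, against 6.42 and 4 RPKM at tillering.

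Some calls were changes of 1 transcript and not of its locus. The transcripts of a locus share most of their reads, and the division among them was estimated upstream. Of the 316 transcripts that rose 274 had a locus sum called in the same direction, and of the 168 that fell 142 had. However, 73.4% of the loci of the risers and 62.3% of those of the fallers hold 1 annotated transcript. There the locus sum is that transcript, so the 2 calls are not separate and these counts say little about loci with several transcripts. A transaldolase transcript (Os01t0926300-02), of the pentose phosphate pathway, had 300 and 226 RPKM at heading, against 1.64 and 0 RPKM at tillering, but the 3 transcripts of the locus summed to 635 and 655 RPKM at heading, against 588 and 325 RPKM at tillering (edgeR adjusted p = 0.269). A transcript of 40S ribosomal protein SA (Os03t0182600-03) had 0 and 0 RPKM at heading, against 12.3 and 9.97 RPKM at tillering, or at least 36.9-fold higher at tillering with a floor of 3 counts per heading library, while the sum over its locus was 109 and 114 RPKM at heading, against 120 and 321 RPKM at tillering (edgeR adjusted p = 0.188). The tonoplast aquaporin transcript Os06t0336200-02 had 2.40 and 1.56 RPKM at heading, against 48.5 and 93.4 RPKM at tillering, and its locus sum was not called either (edgeR adjusted p = 0.122). CESA5, of the primary wall cellulose synthases, had 1 transcript that fell (Os03t0837100-03), at 5.78 and 11.2 RPKM at heading, against 48.2 and 81.3 RPKM at tillering, with a locus sum that was not called (edgeR adjusted p = 0.559).

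For other groups the tillering libraries disagreed, and the sum or median of the list depended on which of them was compared. Germins, wall-associated oxidases, summed to 466 and 471 RPKM at heading, against 482 and 59.6 RPKM at tillering. Metallothioneins, which bind metals, had a median log2 ratio of 0.05 over tillering replicate 1 and of 2.85 over tillering replicate 2. A member annotated as a metallothionein-like protein (Os01t0974200-01) was below both tillering libraries, with 861 and 1031 RPKM at heading, against 7287 and 3436 RPKM at tillering, and its locus sum fell by 2.56 on the log2 scale (edgeR adjusted p = 0.0435). Histones and nucleosome assembly transcripts ran the other way, with medians of 0.19 and -1.61. Type-A response regulators, which damp cytokinin signalling, had medians of -1.08 and 0.15. RR9 (Os11t0143300-01) had 63.8 and 71.0 RPKM at heading, against 290 and 27.01 RPKM at tillering, and RR10 (Os12t0139400-01) had 65.6 and 77.8 RPKM at heading, against 285 and 23.8 RPKM at tillering. In none of these lists was a single transcript called by edgeR in the 12-library fit. In locus sums 1 of 18 germins rose, beside 3.45% of all loci. Of 13 metallothioneins 1 fell, and of 62 histone and nucleosome assembly loci 1 fell, beside 3.23% of all loci. The root glutamine synthetase GS1;2 (Os03t0223400-01), which fixes ammonium into glutamine, had 194 and 172 RPKM at heading, against 218 and 9.34 RPKM at tillering, and the clock gene GIGANTEA (Os01t0182600-01) had 442 and 408 RPKM at heading, against 324 and 31.4 RPKM at tillering. Tillering replicate 2 was below the other 3 libraries for both of these transcripts. Another GIGANTEA transcript (Os01t0182600-03) had 239 and 266 RPKM at heading, against 207 and 249 RPKM at tillering. The GIGANTEA locus summed to 681 and 674 RPKM at heading, against 606 and 280 RPKM at tillering.

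**Figure D4:**
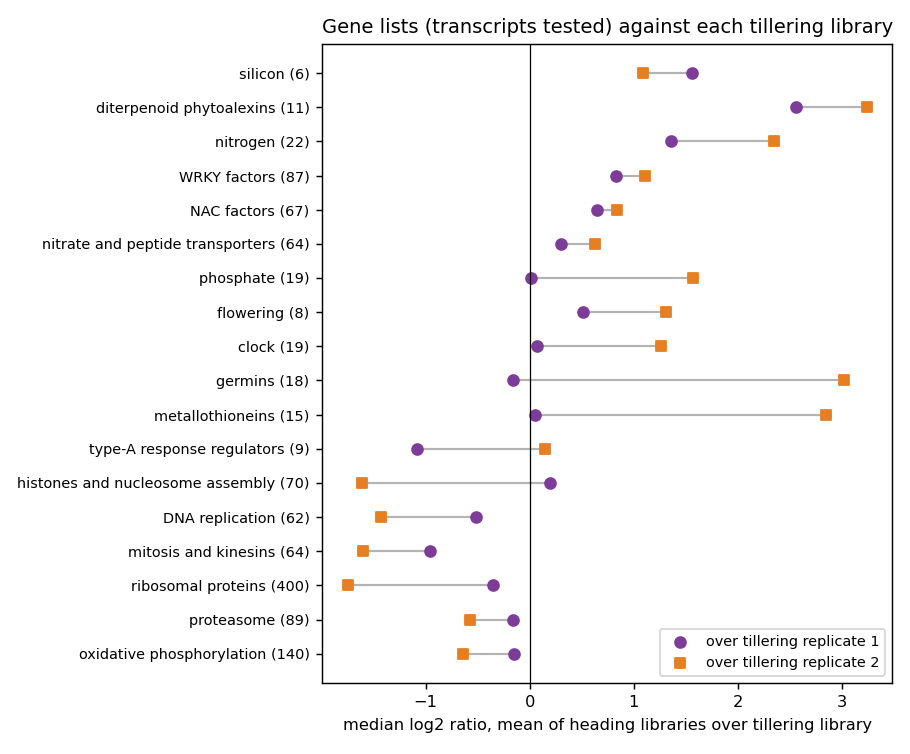
Median log2 ratio of the mean of the heading libraries over tillering replicate 1 (circles) and over tillering replicate 2 (squares) for 18 gene lists, with the number of tested transcripts in brackets. Diterpenoid, nitrogen and silicon genes lie right of 0 and mitosis, replication and ribosomal protein genes left of 0 against both libraries, while the circles and squares of histones, germins and type-A response regulators lie on opposite sides.

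The parents were compared to see where the hybrid's stage change differed from theirs. Over the same 29560 transcripts the edgeR test called 356 in R9308 (1.2%), of which 139 rose and 217 fell, and 26 in Xieqingzao B (0.088%), of which 7 rose and 19 fell. For the difference between the hybrid's stage change and the mean of the parental ones it called none, with 4918 transcripts at an unadjusted p under 0.05 and a smallest adjusted p of 0.121, whereas DESeq2 called 1668. Without hybrid tillering replicate 1 it called 2350. The library R9308 tillering replicate 1 held leaf markers at 5054 RPKM, beside 4.07 to 162 RPKM in the other parental libraries, and their part in the comparison was not tested. No gene is therefore given as particular to the hybrid by the main test.

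Some named genes had like values in all genotypes. Lsi2 (Os03t0107300-01) had a log2 fold change of 3.48 in the hybrid, beside 3.28 in R9308 and 2.80 in the maternal line. Thionin Osthi1 (Os06t0513050-01) had -6.31 in the hybrid, beside -6.82 in R9308 and -6.10 in the maternal line. Of the hybrid's 316 risers 242 had the same sign in R9308 and 253 in Xieqingzao B. In R9308 33 of them were called, out of the 139 that rose there, and in Xieqingzao B 3, out of 7. Of its 168 fallers 148 and 151 shared the sign, and 31 were called in R9308 (of 217) and 6 in Xieqingzao B (of 19). Shared signs were not counted over all tested transcripts, so the counts of shared signs have no background to be judged against. The median over the risers was 2.61 for the hybrid, beside 0.60 for R9308 and 0.74 for Xieqingzao B, and over the fallers it was -2.13, beside -1.06 and -0.88. Since the transcripts were chosen on the hybrid's change, its larger median is no finding.

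Among the transcripts with the smallest p for this difference was the disease resistance protein Os05t0104200-00, whose log2 fold change was 4.10 in the hybrid, beside 0.07 in R9308 and -0.80 in the maternal line. The difference from the parental mean was 4.46 ± 0.49 (SE, edgeR adjusted p = 0.121). The clock gene LUX (Os01t0971800-00), with 10.5 and 20.04 RPKM at heading, against 5.10 and 2.18 RPKM at tillering, stood at 2.17 in the hybrid, beside -2.38 in R9308 and -7.11 in the maternal line, a difference of 6.92 ± 0.80 (SE, edgeR adjusted p = 0.121). For PT8 (Os10t0444700-01) the stage change was 2.08 in the hybrid, beside -0.79 in R9308 and -0.34 in the maternal line, and the difference was 2.64 ± 0.48 (SE, edgeR adjusted p = 0.121). CPS2 (Os02t0571100-01) stood at 4.49 in the hybrid, beside -1.53 in R9308 and -0.14 in the maternal line. In R9308 the summed diterpenoid list stood at 724 and 889 RPKM at heading, against 1503 and 1101 RPKM at tillering. On the other side a membrane-anchored ubiquitin-fold protein (Os03t0426800-01) had -1.25 in the hybrid, beside 0.40 in R9308 and 0.82 in the maternal line, and the clock gene LHY (Os08t0157600-01), with 20.1 and 16.3 RPKM at heading, against 20.3 and 13.5 RPKM at tillering, had 0.22 in the hybrid, beside 2.25 in R9308 and 3.32 in the maternal line. None of these differences passed the adjusted threshold.

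**Figure D5:**
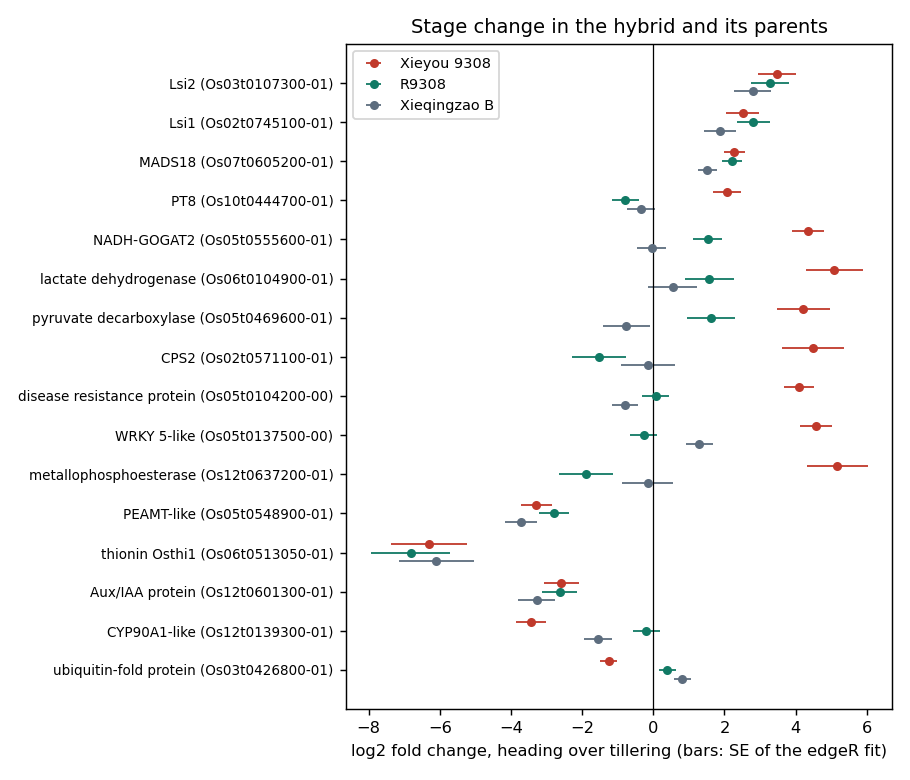
Log2 fold change of heading over tillering (horizontal axis, with the SE of the edgeR fit) in Xieyou9308, R9308 and Xieqingzao B for 16 called transcripts of the hybrid. Lsi2, Lsi1, MADS18 and thionin Osthi1 lie together in the 3 genotypes, whereas PT8, CPS2 and the disease resistance protein lie to the right in the hybrid, with differences that did not pass the adjusted threshold.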

How the data were processed

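The 12 rice root libraries were grouped as labelled, 2 for each genotype and stage. The authors mapped quality-filtered reads to the Nipponbare genome with RSEM 1.1.11 (CASAVA 1.8 is also named in the submitters' notes) and deposited unnormalized counts, whole numbers for each annotated transcript. The deposited RPKM values equal those counts divided by transcript length and library total, within a relative tolerance of 0.0001, for all 504972 values. The authors also deposited log2 fold changes, p-values and FDR between genotypes, which were not used. No sequence or coordinate is given, since the identifiers could not be matched to a genome annotation.

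The main test was that of edgeR 4.0.16 under R 4.3.3 (filterByExpr, TMM, quasi-likelihood fit on all 12 libraries with 1 coefficient per group), with Benjamini-Hochberg adjustment over 29560 transcripts. The common biological coefficient of variation was 0.493 and the prior degrees of freedom 2.54. Calls needed an adjusted p of 0.05 or less and a 2-fold change. All library pairs were compared on TMM-scaled CPM plus 0.5. DESeq2 1.42.0, other scalings, filters, sample sets, dispersions, locus sums and left-out libraries were alternatives. On counts simulated for the hybrid comparison over 28817 transcripts, 111 of 200 changed 16-fold were called, with 4 false calls. Over 28792 simulated transcripts, 0 of 200 changed 4-fold were called. All simulated libraries shared the same spread per transcript. The outlying tillering replicate 2 was thus not simulated, and these counts may not hold for the real libraries. Counting intervals cover counting error only.

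Members and the 46 gene lists, matched by annotation words or locus, were chosen with earlier results of these data known. Named were, per direction, the 12 annotated loci with the largest change among calls at least 2-fold in all 4 pairs with a mean of 5 RPKM, the 3 largest whatever their annotation, up to 4 such calls per list (else the 2 most abundant members), the 3 with the smallest p for the difference from the parents, and marker genes. All other names were chosen after values were seen.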

Additional observations from a re-analysis of the deposited data

How the results depend on the processing

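Against 496 calls, DESeq2 made 3913, the fit without a filter 329, an exact test on the 4 hybrid libraries 1698 with common and 1358 with tagwise dispersion, locus sums 1612, and the quasi-likelihood fit to the 4 hybrid libraries 0 (4743 at an unadjusted p under 0.05). Calls with all 4 pairs at least 2-fold numbered 484, against 2335 with DESeq2, 1460 and 1315 with the exact tests, 1211 with locus sums, 0 with the 4 hybrid libraries and 198 when 4-fold was required. DESeq2 kept 493 of the 496 calls. Leaving out 1 hybrid library gave 0 to 5998 calls, 0 to 5749 calls in all pairs, and 0 to 2350 for the difference from the parents, where DESeq2 made 1668 calls and the main test 0. The other settings gave counts within 1.5 times. The cause of these differences was not tested.

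With the replicate block the test made 0 calls (6713 at an unadjusted p under 0.05) and 0 in all pairs. Deviations of same-numbered heading and tillering libraries of the hybrid correlated at 0.0714 across transcripts. Over all pairs of groups such correlations ran from -0.37 to 0.242. With 2 libraries per group they cannot tell whether the replicate numbers pair the samples.

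Signs in these fits were compared for the named transcripts only, not for all tested ones. Among the named, leaving out a hybrid library turned the sign of 3 that the main test had not called, in each case without tillering replicate 1. CESA4 (Os01t0750300-01) ranged between -1.363 and 3.15 on the log2 scale, beside -0.42 with all libraries. RR9 (Os11t0143300-01) ranged between -2.038 and 1.495, beside -1.15, and RR10 (Os12t0139400-01) between -1.925 and 1.768, beside -1.03. Ratios were bounded at 3 counts per library.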

Other observations

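Some loci that lie at most 2 annotated loci apart were called in the same direction. The pyruvate decarboxylases Os05g0469600 and Os05g0469800, the ethylene response factors Os03g0182800 and Os03g0183000, and the serine carboxypeptidases Os05g0582600 and Os05g0582800 rose, and the BURP domain genes Os05g0217700 and Os05g0217800 fell. How many such pairs chance would give was not tested, and reads of like copies cannot be fully told apart.

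Over all tested transcripts 1.08% rose and 0.595% fell. For NAC factors 2 of 67 tested transcripts rose and 1 fell, but the one that fell, Os01t0938900-01, is annotated as a nascent polypeptide-associated complex subunit and not as a transcription factor. AP2/ERF factors had 3 of 85 that rose and 1 that fell, and heat shock proteins and factors 4 of 169 that rose and 2 that fell. A transcript similar to heat stress factor A-2a (Os03t0745000-02) was at 0.678 and 0.302 RPKM at heading, against 12.3 and 28.4 RPKM at tillering. A cinnamyl alcohol dehydrogenase (Os02t0187800-01), of lignin synthesis, was at 289 and 252 RPKM at heading, against 73.4 and 77.1 RPKM at tillering, and was the 1 of 71 tested phenylpropanoid transcripts that rose. All 5 tested cytokinin oxidases, which break down cytokinin, had both heading libraries above both tillering libraries, beside 29.2% of all transcripts, with a median log2 fold change of 1.32. No single transcript was called by edgeR. In locus sums 1 of 5 rose, beside 3.45% of all loci. This locus, that of Os01t0775400-01, rose by 1.31 on the log2 scale (edgeR adjusted p = 0.0435).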
